A study of Mus musculus with 33 samples.

Results

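Uhrf1 windows on H3K9me3 alone were 10 kb windows of the mouse genome enriched for Uhrf1 in wild type (WT) embryonic stem cells (mESC) that overlapped a WT mESC H3K9me3 domain and no WT mESC H3K27me3 or H3K4me3 domain. They were selected on 4 deposited lists of WT mESC, and 1809 of 13644 Uhrf1 windows met the rule (13.3%, 18.09 Mb of sequence). Of the other Uhrf1 windows, 4369 carried H3K9me3 and H3K27me3, 790 carried H3K27me3 alone, 552 touched H3K4me3 and 6124 overlapped none of the 3 marks. The values that chose the windows, namely Uhrf1 enrichment and the 3 WT mESC marks, are given below as description only.

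ChIP-seq recovers DNA bound by a protein or a modified histone with an antibody and sequences it. The cells were E14 mESC of WT and Uhrf1 KO genotype, kept undifferentiated, and embryoid bodies (EBs), aggregates in which such cells differentiate, of both genotypes at weeks 1, 2 and 3. In mESC of both genotypes H3K4me3, H3K27me3, H3K9me3, Oct4, Sox2 and Nanog were measured, in EBs H3K4me3 and H3K27me3, and Uhrf1 itself in WT mESC only. Each of the 25 lists used came from 1 library of 1 group, among 33 samples in all. No difference could therefore be set against a spread between replicates, and the number of clones behind the KO line is not given in the sources used here. Wilson 95% intervals for shares and Newcombe 95% intervals for differences cover counting error over windows or sites only, and neighbouring windows often lie in the same domain. The control were 36356 tiles of the same 10 kb grid that met the same rule on the 3 marks but were not in the Uhrf1 list, called control tiles below, and the background was all 255875 tiles with at least 50% known bases.

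Uhrf1 recruits the maintenance DNA methyltransferase Dnmt1 to newly replicated DNA and recognizes both hemimethylated CpG sites and methylated lysine 9 of histone H3 through separate domains. H3K9me3 marks constitutive heterochromatin and, in mESC, many retrotransposons, where it is deposited by Setdb1 and the Suv39h enzymes. LINE-1 (L1) elements are the commonest autonomous retrotransposons of the mouse, and a full copy carries a promoter in its 5′ untranslated part followed by the reading frames ORF1 and ORF2, the latter encoding the reverse transcriptase. H3K27me3 is laid down by Polycomb complexes, and H3K4me3 marks active or poised promoters.

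Several lists stood apart on 3 chromosomes. WT H3K9me3 domains touched 87.7% of tiles on chromosome 8 and 81.9% on chromosome 11, against 21.6 to 53.0% on the other chromosomes but X, and 3.79% on X. The KO H3K9me3 list touched 33.8%, 98.9% and 0.450% of tiles on chromosomes 8, 11 and X. Only 14 of the windows lay on chromosome 8, 10 on chromosome 11 and 67 on X, and results without them are given where they moved. As a check of the cell type, 5 of 6 pluripotency genes (Pou5f1, Nanog, Sox2, Zfp42 and Klf4, but not Esrrb) had H3K4me3 within 2 kb of their start in WT and in KO mESC. The start of Uhrf1 itself carried H3K4me3 in all 8 lists of that mark, KO included, which is no test of the deletion.

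Most of the windows lay wholly within an H3K9me3 domain or domains. H3K9me3 covered 1529 of them from end to end (84.5%) and less than 50% of 122 (6.74%). At the edge of the rule, 10 windows overlapped H3K9me3 by the smallest length seen, 200 bp, and just outside it 9 Uhrf1 windows were left out for 200 bp of H3K27me3 and 22 for less than 1 kb. The median distance was 60.8 kb to the nearest WT H3K27me3 domain, with 160 windows within 10 kb (8.84%), and 198.8 kb to the nearest H3K4me3 domain. The 1809 windows were spread over 1268 H3K9me3 domains, of which 951 held 1 window each. These domains had a median length of 95.4 kb, against 34.2 kb for the 10017 domains without a window, and a median read count per bin of 14.7 against 15.0. A long domain has more room for a window, so the lengths are a description. As a description, 4.74% of all 38164 tiles with H3K9me3 alone were in the Uhrf1 list, against 5.31% of all tiles. With other marks allowed, WT H3K9me3 touched 48.5% of all Uhrf1 windows, against 42.9% of all tiles. The direction thus depended on leaving out tiles with other marks. The paper reports that, of the marks compared, H3K9me3 correlated best with Uhrf1 across the genome, which was not tested here.

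The sequence of the windows was rich in L1. An L1 copy was recognized by a stretch of 24 bases that encodes 8 residues around the catalytic aspartate pair of the ORF2 reverse transcriptase, searched in translation on both strands. The stretch was present in 914 windows (50.5%, interval 48.2 to 52.8), in 10.2% of control tiles and in 7.74% of all tiles. The difference from control tiles was 40.3 percentage points (38.0 to 42.7), larger than the counting error. It was higher in the windows than in control tiles on each of the 17 chromosomes with at least 50 windows, where it ranged from 34.3 to 64.3% in the windows and from 8.94 to 25.9% in control tiles. The ORF2 stretches of the longest runs of touching windows are given as examples. They were read from the NCBIM37 assembly (mm9) along the L1 strand, with the 24 coding bases in capitals. The search fixed the 8 residues, so these 24 bases could differ only between codons of the same residue. Likeness over them is by choice, and copies of control tiles were not compared.

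chr7:5736689-5736748, minus strand: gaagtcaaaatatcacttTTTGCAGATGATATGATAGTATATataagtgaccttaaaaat
chr5:16248318-16248377, plus strand: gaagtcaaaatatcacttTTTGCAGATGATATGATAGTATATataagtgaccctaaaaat
chr5:16257899-16257958, minus strand: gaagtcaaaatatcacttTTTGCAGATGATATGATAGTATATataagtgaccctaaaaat
chr5:16266555-16266614, minus strand: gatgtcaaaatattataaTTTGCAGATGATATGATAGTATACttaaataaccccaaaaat
chr7:17818651-17818710, minus strand: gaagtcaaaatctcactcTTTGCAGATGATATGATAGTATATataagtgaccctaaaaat
chr7:17829618-17829677, minus strand: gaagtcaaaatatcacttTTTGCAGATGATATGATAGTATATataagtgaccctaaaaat
chr7:34145281-34145340, plus strand: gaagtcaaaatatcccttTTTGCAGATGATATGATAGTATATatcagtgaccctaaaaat

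Over these 60 bases, 5 of the other 6 copies differed from the first at 1 to 3 positions, and the third chromosome 5 copy differed at 11. The ORF1 stretch, searched in the same way, was present in 29.8% of the windows and 6.16% of control tiles, and both stretches together in 23.7% and 2.59%. As a check, genome-wide the ORF2 stretch lay a median of 2692 bp downstream of the ORF1 stretch, with 89.5% of the distances between 2500 and 2800 bp. L1 was not particular to this class of Uhrf1 window. The ORF2 stretch was present in 53.8% of Uhrf1 windows on H3K27me3 alone, a difference of −3.27 points whose interval spans 0 (−7.42 to 0.90). It was present in 47.4% of those with H3K9me3 and H3K27me3 (difference 3.12, 0.38 to 5.86), 29.2% of those without mark (21.3, 18.7 to 23.9) and 26.8% of those with H3K4me3 (23.7, 19.2 to 27.9).

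**Figure D1:**
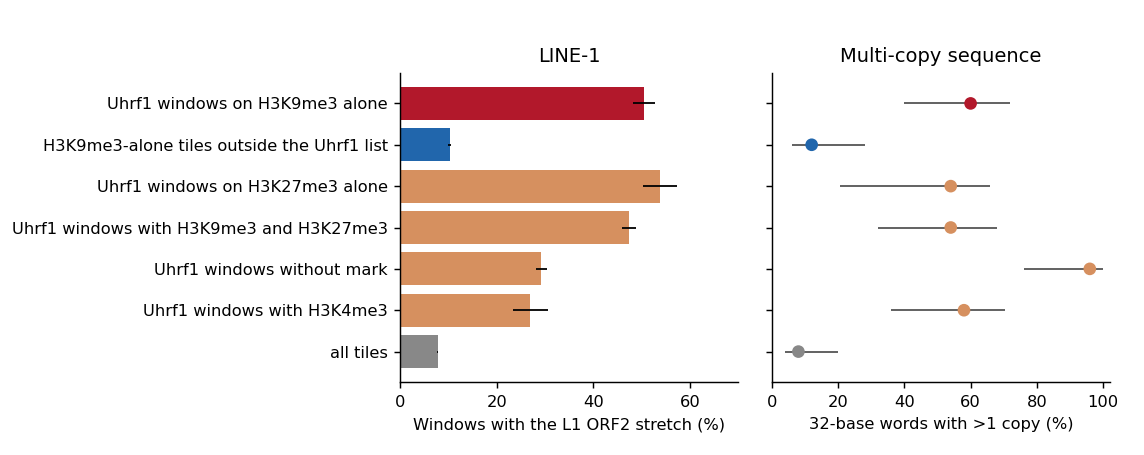
Left, bars give the share (%) of 10 kb windows holding the L1 ORF2 stretch with 95% intervals, and right, points give the median percent of sampled 32-base words found more than once in the genome with the quartiles as lines, for 5 classes of Uhrf1 window, the control tiles and all tiles. The windows on H3K9me3 alone stood at 50.5% and 60%, the control tiles at 10.2% and 12%.

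Of the sampled sequence, 55.5% had more than 1 copy. Words of 32 bases were sampled every 200 bp, and in the median window 60% of them occurred more than once in the genome (quartiles 40 and 72%), against 12% in control tiles (6 and 28%) and 8% in all tiles. In the other Uhrf1 windows the median was 70%. Of all sampled words, 45.2% had over 10 copies, against 13.2% in control tiles. The authors' alignment reported 1 position per read, so reads of such words can be placed at any of their copies, and the part of this in the Uhrf1 list was not tested. Windows without such sequence were few: 187 (10.3%) had under 20% multi-copy words, against 64.2% of control tiles. Even the 895 windows without the ORF2 stretch had a median of 50%, against 10% in control tiles without it. CpG dinucleotides, the substrate of maintenance methylation, were denser, with a median of 7.8 per kb against 5.7 in control tiles and 7.2 in all tiles, at a GC content of 40.2% against 39.2% and 41.2%. CpG density was 8.2 per kb in windows with the ORF2 stretch and 7.0 in those without.

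Most of the windows were intergenic. The midpoint lay in a protein-coding gene for 337 windows (18.6%, 16.9 to 20.5), against 21.9% of the other Uhrf1 windows (difference −3.22, −5.11 to −1.22), 29.2% of control tiles and 38.8% of all tiles. A protein-coding start lay in 33 windows (1.82%), against 3.11% of control tiles and 7.83% of all tiles, and the median distance to a start was 143 kb, against 127 kb and 68.3 kb. X held 3.70% of the windows (2.93 to 4.68) against 17.4% of the other Uhrf1 windows (difference −13.7, −14.8 to −12.5), while 32.1% of Uhrf1 windows without mark were on X. That difference lies in lists used by the rule, since WT H3K9me3 domains touched few X tiles. Chromosome 3 held the most windows, 174 or 1.11 per Mb, followed by chromosome 1 with 149 (0.778 per Mb) and chromosome 7 with 136 (0.958 per Mb). Chromosome 11 had 0.0842 and chromosome 8 had 0.112 per Mb, and Y had 0.

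Most windows did not touch another of their class, but many had one nearby. They formed 1670 runs of touching windows, of which 1540 were single windows (85.1% of the windows), 123 were pairs and 7 had at least 3. Midpoints of neighbours were a median of 130 kb apart, 819 windows (45.3%) had another within 100 kb, and 321 (17.7%) touched a Uhrf1 window of any class. Windows were found in 406 of 543 bins of 5 Mb, and the 10 fullest bins held 206 of them (11.4%). The fullest bin, chromosome 7 from 10 to 15 Mb, held 31 windows among 79 protein-coding genes, of which 35 were vomeronasal (pheromone) receptor genes. The next ones, chromosome 3 from 5 to 10 Mb with 26 windows and chromosome 6 from 10 to 15 Mb with 23, held 14 protein-coding genes each.

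The longest run was 5 windows at chr7:5710001-5760000, over the pheromone receptor gene Vmn1r63. All of its sampled words were multi-copy in the median window, and it held 1 ORF2 stretch, no KO H3K9me3 and no EB week 2 H3K27me3. A run of 3 at chr7:34140001-34170000 covered Abpd, a secreted androgen-binding protein gene, and Gm5895, and likewise had KO H3K9me3 in 0 of 3 windows. At chr5:16240001-16270000, 3.11 kb from Gm8991, each of the 3 windows lay in a KO H3K9me3 domain, and the run held 3 ORF2 stretches and a WT Oct4 site. The run at chr7:17810001-17840000, 8.90 kb from the pregnancy-specific glycoprotein gene Psg29, held 2 ORF2 stretches. The runs at chr2:90250001-90280000 in Ptprj, a receptor tyrosine phosphatase gene, chr3:12220001-12250000 and chr6:133160001-133190000 held none. In these last 4 runs 3 of 3 windows kept a KO H3K9me3 domain. The difference between the 2 runs without KO H3K9me3 and the other 5 was not tested.

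Few genes were touched, and mostly very long ones. The windows touched 335 of 22367 protein-coding genes (1.5%), from 0.384% of genes under 10 kb to 14.3% of the 954 genes over 200 kb. Gucy1a2, which encodes a subunit of soluble guanylate cyclase, was touched by 6 windows over 365 kb (chr9:3532354-3897342), all 6 with KO H3K9me3 and 1 with the ORF2 stretch. A830018L16Rik on chromosome 1 was touched by 5, of which 4 held KO H3K9me3 and 4 the ORF2 stretch. Trdn, the triadin gene of muscle calcium release, was touched by 4, all with KO H3K9me3. Asap2 (an Arf GTPase-activating protein), Cdh18 (a cadherin), Cntnap5b (a contactin-associated protein), Gm2075, Htr1f (a serotonin receptor), Immp2l (a mitochondrial peptidase), Tcte2 and Ube2e2 (a ubiquitin-conjugating enzyme) were touched by 3 each. KO H3K9me3 was present in all 3 windows of Asap2, Cdh18, Htr1f and Tcte2, in 2 of Ube2e2, in 1 each of Gm2075 and Immp2l and in 0 of Cntnap5b. WT EB week 2 H3K27me3 was present in each window of 6 of these 11 genes. The exceptions were Asap2, Immp2l and Tcte2 with 2 of 3 each, Gm2075 with 1 and Ube2e2 with 0.

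Families were counted beside the 1.5% of all protein-coding genes, and the 6 of 26 with the highest shares are given. Contactin and neurexin genes, grouped with other synaptic or large adhesion genes, were touched in 7 of 27 (25.9%), with 3 windows in Cntnap5b and 1 in Cntn5. However, their median length was 713 kb, in the range where 14.3% of all genes were touched. Skint genes, butyrophilin-like genes of skin and thymus, followed with 2 of 11 (18.2%), Skint7 and Skint8, which overlap each other, so 1 window can touch both. Killer cell lectin-like receptor genes had 2 of 28 (7.14%), Klra9 and Klra10, which also overlap in the annotation, so 1 window can touch both. Glutamate and GABA receptor genes had 3 of 46 (6.52%), with 2 windows in the AMPA receptor gene Gria4 and 1 in the kainate receptor gene Grik1. Cytochrome P450 genes, of steroid and drug metabolism, had 6 of 98 (6.12%), among them Cyp2c29 and Cyp2c39. Potassium channel genes had 5 of 96 (5.21%), among them Kcnd2 and Kcnh5. Gria4, Grik1, Kcnd2 and Kcnh5 are 378, 394, 514 and 280 kb long, also in the range where 14.3% of all genes were touched. Control tiles touched 59.3, 36.4, 42.9, 37, 33.7 and 19.8% of the genes of these 6 families, in the order given. Of the chemosensory families, vomeronasal receptor genes were touched in 11 of 331 (3.32%) and olfactory receptor genes in 7 of 1113 (0.629%). Any Uhrf1 window touched 31.4% and 3.86% of these families, and 9.84% of all protein-coding genes. The more numerous control tiles touched 30.8%, 28.6% and 16.3%. No Hox, replication-dependent histone, keratin, clustered protocadherin or ribosomal protein gene was touched, of 40, 67, 97, 24 and 144.

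Most of the windows lay in an H3K9me3 domain in Uhrf1 KO mESC as well. Since every window has WT H3K9me3 by the rule, the KO list was compared with control tiles, which have it too, and not with WT. A KO H3K9me3 domain overlapped 1288 of the 1809 windows (71.2%, 69.1 to 73.2), 72.1% of control tiles and 43.6% of all tiles. The difference from control tiles was −0.90 points, with an interval that spans 0 (−3.08 to 1.19), and it was 3.97 (1.57 to 6.29) with runs of touching windows or tiles counted once. Without chromosomes 8, 11 and X the share was 73.6%. By chromosome it ranged from 11.9% on X to 85.6% on chromosome 3 where there were at least 50 windows, with control tiles between 7.57 and 83.1%, and it was higher in the windows than in control tiles on 10 of those 17 chromosomes.

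The share rose with the length of the WT domain, in the windows and in control tiles. In WT domains under 50.4 kb, 38.1% of the windows had KO H3K9me3 against 47.1% of control tiles (difference −9.06, −13.5 to −4.39). From 50.4 to 140.4 kb the shares were 67.3 and 68.4% (−1.17, −5.73 to 3.12), and from 140.4 to 345.6 kb they were 86.1 and 85.9% (0.25, −3.31 to 3.23). Over 345.6 kb they were 93.2 and 88.7% (4.48, 1.70 to 6.57). Weighted over the 4 length groups the difference was −1.37 points (−3.25 to 0.52). Weighted over 5 groups of multi-copy share it was −5.94 (−8.28 to −3.61), so that at a like share of multi-copy words fewer of the windows than of control tiles had KO H3K9me3. The 1288 windows with KO H3K9me3 lay in WT domains of a median 205.2 kb, the 521 without in domains of 45 kb. The ORF2 stretch was present in 53.0% and 44.5% of them, and the midpoint was genic in 15.8% and 25.7%. The longest runs without KO H3K9me3 in any window were the chromosome 7 runs at Vmn1r63 and at Abpd and a pair at chr1:108190001-108210000 in Phlpp1, a phosphatase gene.

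**Figure D2:**
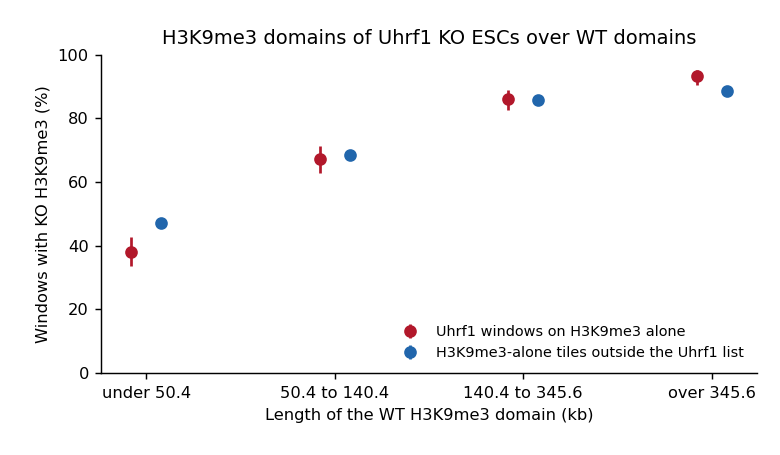
Points give the share (%) of windows that overlap an H3K9me3 domain of Uhrf1 KO mESC, with 95% intervals, in 4 groups of WT domain length (kb), for the windows in red and control tiles in blue. Shares climb from 38.1 to 93.2% in the windows and from 47.1 to 88.7% in control tiles.

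The other KO mESC marks were nearly absent. KO H3K27me3 was present in 22 windows (1.22%), against 0.773% of control tiles (difference 0.44, 0.02 to 1.07) and 3.55% of all tiles. KO H3K4me3 was present in 19 (1.05%), against 1.39% of control tiles (difference −0.34, −0.74 to 0.25) and 11.8% of all tiles. The KO H3K27me3 list was the thinnest of the histone lists, with 84.1 Mb in 722 domains, which limits what could be found there.

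**Figure D3:**
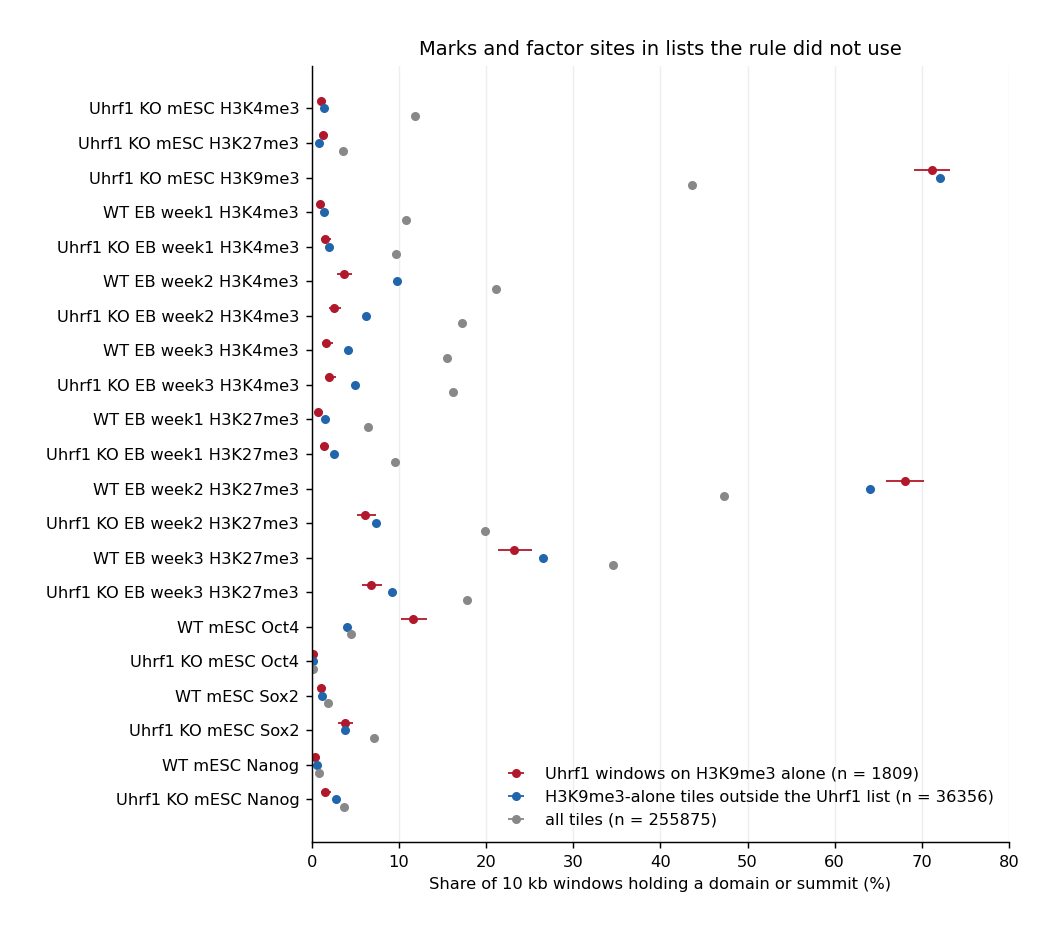
Points give the share (%) of 10 kb windows that hold a domain or summit in each of 21 lists that the rule did not use, with 95% intervals, for the windows in red, control tiles in blue and all tiles in grey. KO H3K9me3 (71.2%), WT EB week 2 H3K27me3 (68.1%), WT EB week 3 H3K27me3 (23.2%) and WT Oct4 (11.6%) were the lists found in over 10% of the windows.

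In WT EBs most of the windows came to lie in H3K27me3 domains at week 2, and in KO EBs few did. At week 1 H3K27me3 was present in 13 windows in WT (0.719%) and 24 in KO (1.33%). Control tiles had 1.52 and 2.52% (difference 1.01, 0.83 to 1.18) and all tiles 6.45 and 9.56%. At week 2 H3K27me3 was present in 1232 windows in WT (68.1%) and 111 in KO (6.14%), where all tiles had 47.3 and 19.8%. Of these windows 1155 were marked in WT only, 34 in KO only and 77 in both, a difference of −62.0 points (−64.3 to −59.5). At week 3 there were 420 in WT (23.2%) and 123 in KO (6.80%), a difference of −16.4 (−18.6 to −14.2), where all tiles had 34.6 and 17.8%. Control tiles moved in the same way, from 64.1 to 7.36% at week 2 (−56.7) and from 26.5 to 9.23% at week 3 (−17.3). The WT share at week 2 was 4.02 points above that of control tiles (1.78 to 6.18), 3.60 (1.57 to 5.62) weighted over WT domain length and −0.56 (−3.02 to 1.90) weighted over multi-copy share. The WT week 2 list was also the broadest of the H3K27me3 lists, with 1165 Mb in 4769 domains against 466.8 Mb in 4180 in KO, and with 1 library each the genotype and the library cannot be told apart.

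The week 2 mark was commoner in windows that had KO H3K9me3. WT EB week 2 H3K27me3 was present in 77.1% of the 1288 windows with KO mESC H3K9me3 and 45.9% of the 521 without, a difference of 31.2 points (26.3 to 36.0). By WT domain length the difference was 2.52 (−6.53 to 11.7) under 50.4 kb, and 12.2, 32.4 and 47.7 (30.1 to 63.4) in the longer groups. Control tiles were not split by KO H3K9me3, so whether this contrast is particular to the windows was not tested. Both lists also touched few tiles on X, and the contrast was not counted within chromosomes. Windows with the ORF2 stretch had WT week 2 H3K27me3 in 76.6% and those without in 59.4%, against 77.7 and 62.5% of control tiles with and without it. Over the 3 weeks, 488 windows had no H3K27me3 in any WT EB list (27%), 984 had it in 1 week (54.4%), 330 in 2 (18.2%) and 7 in all 3 (0.387%). Control tiles had 29.8, 49, 20.4 and 0.748%, and all tiles 42.4, 30.9, 22.7 and 4%. In KO EBs the counts were 1582 (87.5%), 202, 19 and 6, where 85.1% of control tiles and 71.3% of all tiles had none.

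H3K4me3 stayed rare in EBs. It was present at week 1 in 16 windows in WT and 27 in KO (0.884 and 1.49%, difference 0.61, 0.03 to 1.24). Control tiles had 1.43 and 1.94% (difference 0.51, 0.36 to 0.66) and all tiles 10.8 and 9.62%. At week 2 H3K4me3 was present in 66 and 46 windows (3.65 and 2.54%, difference −1.11, −2.03 to −0.22). Control tiles had 9.75 and 6.24% (difference −3.51, −3.81 to −3.22) and all tiles 21.1 and 17.2%. At week 3 H3K4me3 was present in 30 and 36 windows (1.66 and 1.99%, difference 0.33, −0.33 to 1.02). Control tiles had 4.17 and 4.95% (difference 0.78, 0.56 to 1.01) and all tiles 15.5 and 16.2%. In the windows neither the week 1 nor the week 2 difference held under all settings. That of week 2 was 0.17 when a mark had to cover 50% of the window (−0.22 to 0.59) and −0.17 with domains at or above the median score (−0.72 to 0.37). The interval of week 1 included 0 with touching windows counted once (−0.02 to 1.27) and without the X chromosome (−0.02 to 1.22), and the difference was 0 at 50% coverage. The WT week 2 share minus that of control tiles was −6.11 points (−6.94 to −5.09). In WT, 1724 windows had no H3K4me3 in any EB week (95.3%), against 88.7% of control tiles and 76.3% of all tiles.

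**Figure D4:**
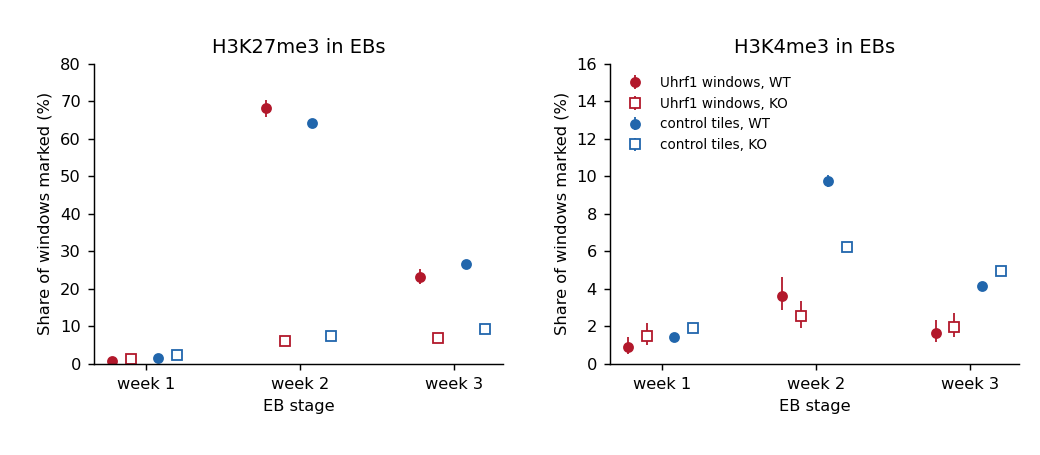
Points give the share (%) of windows with H3K27me3 (left) or H3K4me3 (right, on a shorter axis) in WT EBs (filled circles) and Uhrf1 KO EBs (open squares) at weeks 1, 2 and 3, with 95% intervals, for the windows in red and control tiles in blue. H3K27me3 stood at 68.1% in WT and 6.14% in KO at week 2, with control tiles at 64.1 and 7.36%.

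Windows marked in all 3 WT weeks were single windows, 8 for H3K4me3 and 7 for H3K27me3. Those with H3K4me3 lay in Lrrc39, a gene of a muscle leucine-rich repeat protein, in Cdk6, a kinase of cell cycle entry, in Stam, an adaptor of endosomal sorting, and in Gpr137b, with the other 4 between genes. The Lrrc39 window carried H3K4me3 in all 3 KO weeks too. Those with H3K27me3 included a window 1.39 kb from H60c, a ligand gene of an activating receptor of natural killer cells, and another 59.7 kb from Irs1, the insulin receptor substrate gene. The windows chr16:3230001-3240000 and chrX:32090001-32100000 were in both sets and carried both marks in all KO weeks as well. Of 36 annotated gene starts in the windows, 2 came within 2 kb of H3K4me3 in any EB list. These were Lrrc39, in all 6 lists, and Capn9, a calpain protease gene of the gut, in 4. The start of none of the 36 had H3K4me3 in KO mESC. The windows lack WT mESC H3K4me3 by the rule, and the share over all gene starts was not counted. These counts are therefore a description.

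Oct4 was the factor found more often in the windows than in control tiles. Oct4, Sox2 and Nanog bind enhancers of pluripotency genes together, Oct4 through the octamer sequence. In WT mESC 231 Oct4 summits lay in 210 windows (11.6%), against 4.03% of control tiles (difference 7.58, 6.17 to 9.15) and 4.44% of all tiles. The other Uhrf1 windows held one in 9.05% (difference 2.56, 1.07 to 4.20), from 7.30% of those without mark and 9.41% of those with H3K9me3 and H3K27me3 to 14.3% of those on H3K27me3 alone and 18.1% of those with H3K4me3. The summits were low, with a median height of 25 reads (14 to 94), against 35 in control tiles and 37 in all tiles. The excess moved with multi-copy sequence. Of the 187 windows with under 20% multi-copy words 3 held a summit (1.60%), against 3.07% of control tiles. The interval of that difference spans 0 (−1.46, −2.54 to 1.55). Of the 270 with 80% or more 53 held one (19.6%), against 8.92% (difference 10.7, 5.06 to 16.5). Weighted over 5 groups of multi-copy share the difference was 4.45 points (2.82 to 6.07). How far reads placed at 1 of many copies contribute to these sites was not tested.

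These summits had a preferred place along L1. Of the 231, 114 (49.4%, 43.0 to 55.8) lay 3200 to 4500 bp before the ORF2 stretch along the L1 strand, upstream of ORF1 where the 5′ end of L1 is found, against 12.2% of summits in control tiles and 13.1% in all tiles. The limits of this zone were chosen after the positions had been seen, so the share in the windows is a description. In the other Uhrf1 windows 49.6% of summits lay there. Counted by L1 copy, 143 of 981 ORF2 stretches in the windows (14.6%) had a WT Oct4 summit in their zone, against 4.80% in control tiles (difference 9.78, 7.59 to 12.2) and 15.3% in the other Uhrf1 windows (−0.71, −3.04 to 1.84). Among copies with both stretches the shares were 8.63% and 4.33% (4.30, 1.73 to 7.35). The commonest 20 bases within 100 bp of these summits are shown in capitals along the L1 strand, within 30 bases. The 3 sites are the tallest that held them, so the 20 bases are the same by choice.

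chr1:48603705-48603734, summit height 42: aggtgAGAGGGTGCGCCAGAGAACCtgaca
chrX:75476524-75476553, summit height 35: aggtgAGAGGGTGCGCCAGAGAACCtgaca
chr4:18534068-18534097, summit height 34: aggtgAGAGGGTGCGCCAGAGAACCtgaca

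This word was found at 69 of the 114 sites (60.5%) and near 0.0473% of tile midpoints, and the commonest 8 bases, CGCCATCT, at 83 (72.8%) and 0.423%. Other WT Oct4 summits of the zone held them about as often. The shares were 54.9 and 76.7% in control tiles, and 58.1 and 76.4% over all tiles. Both words were chosen as the commonest here, so the shares carry no test. The octamer ATGCAAAT, searched on both strands, was found at 14 of 231 sites (6.06%), against 10.2% of all WT Oct4 sites and 1.74% of tile midpoints. It was found at 2 of the 114 sites in the zone and at 12 of the 117 outside it (10.3%). The Sox motif CATTGT was found at 9 of 231 sites (3.90%), against 13.4% of all WT Oct4 sites and 12.6% of tile midpoints, and at 0 of the 114 in the zone, which allows up to 3.26%.

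**Figure D5:**
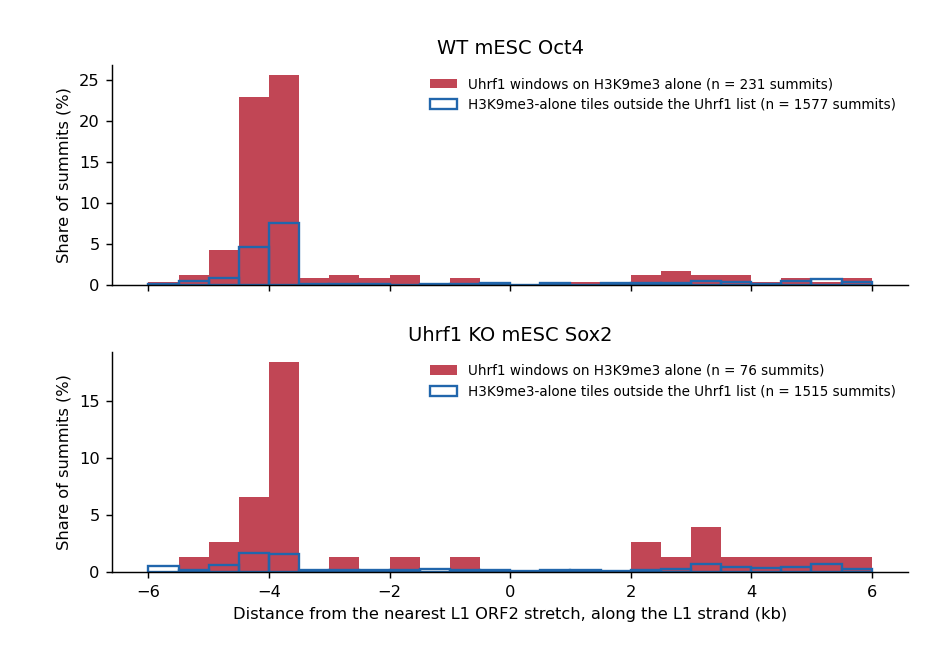
Bars of 500 bp give the share (%) of WT Oct4 summits (top) and Uhrf1 KO Sox2 summits (bottom) by distance (kb) from the nearest L1 ORF2 stretch along the L1 strand, filled for the windows and outlined for control tiles. In the windows 49.4% of 231 Oct4 summits and 25% of 76 Sox2 summits fell 3200 to 4500 bp before the stretch.

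The 3 tallest WT Oct4 sites show the kinds of sequence outside the shared word. They are printed as 100 bases on the plus strand around the summit, with the octamer in capitals where present.

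chr1:11611026-11611125, height 94: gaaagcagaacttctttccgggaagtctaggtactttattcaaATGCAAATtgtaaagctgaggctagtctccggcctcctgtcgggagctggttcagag
chr5:89633242-89633341, height 90: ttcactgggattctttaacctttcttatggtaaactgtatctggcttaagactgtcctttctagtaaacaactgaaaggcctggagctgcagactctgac
chr5:88591930-88592029, height 83: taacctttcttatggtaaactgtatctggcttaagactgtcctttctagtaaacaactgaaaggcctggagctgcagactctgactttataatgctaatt

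The tallest lay in A830018L16Rik, 3706 bp before an ORF2 stretch, and held an octamer. The second lay in Slc4a4, a bicarbonate cotransporter gene, and the third was 8.86 kb from Gm11115. These last 2, at different places of chromosome 5, shared a run of 85 bases. The middle 20 bases of that run were found at 9 of the 231 Oct4 sites in the windows, 18 of the 1577 in control tiles and 74 of all 12695.

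In Uhrf1 KO mESC most Oct4 sites of the windows had no factor summit nearby. The KO Oct4 list is small, and 7 of its summits lay in 2 windows (0.111%), against 0.129% of all tiles. None of the 231 WT Oct4 sites had a KO Oct4 summit within 100 bp, which allows up to 1.64%, and 1.08% of those in control tiles did. A KO Sox2 summit was near 45 sites, a KO Nanog summit near 16 and any KO factor near 46 (19.9%, 15.3 to 25.5). In control tiles 47.2% of WT Oct4 sites had a KO factor near (difference −27.3, −32.5 to −21.1), and over all tiles 52.7%. The low share was not particular to this class. In the other Uhrf1 windows 282 of 1192 sites (23.7%) had a KO factor near. Outside the zone 37 of 117 sites (31.6%) had one, against 51.7% in control tiles (−20.1, −28.3 to −10.8) and 37.6% in other Uhrf1 windows. Inside the zone 9 of 114 (7.89%) had one, against 14.5% (−6.61, −13.4 to 1.11) and 9.48% in other Uhrf1 windows. Fewer sites of the windows than of control tiles had a Sox2 summit near in WT as well. A WT Sox2 summit was near 11 of 231 sites in the windows and 300 of 1577 in control tiles. In the other Uhrf1 windows it was near 106 of 1192. When each factor list was limited to summits above its median height, 52.6% of the remaining WT Oct4 sites of the windows had a KO factor near (37.3 to 67.5). The share in control tiles under that limit was not counted.

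Sox2 and Nanog were sparse in the windows. WT Sox2 had 19 summits in 18 windows (0.995%), against 1.84% of all tiles, and KO Sox2 had 76 in 68 (3.76%), against 3.85% of control tiles and 7.07% of all tiles. Of the 76 KO Sox2 summits 19 (25%) lay in the L1 zone, against 3.30% of those in control tiles and 18.7% in the other Uhrf1 windows. CGCCATCT was found at 16 of the 19. Among KO Sox2 summits of the zone it was found at 56% in control tiles and 69.2% over all tiles. WT Nanog had 10 summits in 6 windows (0.332%), against 0.823% of all tiles, and KO Nanog 32 in 27 (1.49%), against 2.77% of control tiles and 3.67% of all tiles. KO exceeded WT by 2.76 points for Sox2 (1.97 to 3.68) and 1.16 for Nanog (0.70 to 1.78). In control tiles KO exceeded WT by 2.72 points for Sox2 (2.55 to 2.90) and by 2.24 for Nanog (2.09 to 2.40).

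The tallest summits of the remaining 5 lists fell at 2 places, both repetitive. They are shown on the plus strand because their sequence is what sets them apart from the Oct4 sites above.

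chr17:13745469-13745568, KO Oct4, height 42: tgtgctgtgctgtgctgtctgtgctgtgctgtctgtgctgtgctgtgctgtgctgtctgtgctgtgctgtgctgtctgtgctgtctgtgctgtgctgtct
chr17:13745855-13745954, WT Nanog, height 24: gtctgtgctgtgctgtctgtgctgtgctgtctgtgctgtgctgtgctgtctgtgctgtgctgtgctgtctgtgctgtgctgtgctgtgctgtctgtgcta
chr16:10975167-10975266, WT Sox2, height 81: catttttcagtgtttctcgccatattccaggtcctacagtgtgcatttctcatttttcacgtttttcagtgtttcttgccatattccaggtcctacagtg
chr16:10975170-10975269, KO Sox2, height 77: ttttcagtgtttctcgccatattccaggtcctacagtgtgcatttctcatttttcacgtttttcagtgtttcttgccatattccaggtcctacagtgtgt
chr16:10975164-10975263, KO Nanog, height 39: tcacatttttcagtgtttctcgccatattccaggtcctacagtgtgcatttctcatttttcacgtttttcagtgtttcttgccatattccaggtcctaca

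The first 2 lie in a tandem repeat within Tcte2, a gene of the t-complex expressed in testis. Its window, chr17:13740001-13750000, held summits of all 6 factor lists, with 4 of the 7 KO Oct4 summits (heights 39 to 42) and 3 WT Nanog summits (22 to 24). The other 3 lie within Litaf in a stretch that resembles the major satellite, the repeat of mouse pericentric heterochromatin. In that window, chr16:10970001-10980000, 1 summit each of WT Sox2, KO Sox2 and KO Nanog was listed and none of either Oct4 list or of WT Nanog, with summits 3 to 6 bp apart. Of the sampled words of that window 2% were multi-copy, so the stretch stands in sequence that is otherwise mostly unique.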

How the data were processed

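ChIP-seq domains, windows and summits of WT and Uhrf1 KO cells were taken as deposited, 1 list per library. The authors aligned reads with Bowtie2 (2.1.0, 1 alignment per read) to mm9. Histone domains were called by the authors with RSEG against input, with the mean read count per bin as signal and a score that grows with bin number. Factor summits were called by the authors with MACS, with a signal of reads at the summit. The authors' Uhrf1 windows hold positions only. Sequencing totals were not used.

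Tiles of 10 kb were classed by overlaps of at least 1 bp, and summits were near within 100 bp. Coordinates are 1-based. L1 stretches, words and genes came from NCBIM37 and its GENCODE annotation (Python 3.11.15, NumPy 2.4.6, pandas 2.3.3, Biopython 1.88, matplotlib 3.10.9). No replicate test was possible with 1 library per group. Counts, searches and intervals were tested on simulated data. Named items were the longest runs (7, because of ties), genes (8 by rule, 11 with ties) and 6 families (at least 10 genes) touched most, the tallest summits and windows marked in all WT weeks. Summits on chromosome 18 were left out of the naming. The members and lists were chosen with earlier results of these data known. Of the alternatives in the closing section, those leaving out chromosomes 8, 11 and X together or zone summits, splitting windows by the ORF2 stretch or weighting by multi-copy share were chosen after seeing the data.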

Additional observations from a re-analysis of the deposited data

Results flagged for a closer look

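Differences between KO and WT that had opposite signs at different weeks were singled out, as were opposite differences from control tiles in domains of different length. The differences between them were not tested. For H3K27me3, week 1 gave a KO minus WT share of 0.61 points (−0.01 to 1.28), whereas week 2 gave −62.0 (−64.3 to −59.5). Control tiles had the same signs, at 1.01 (0.83 to 1.18) and −56.7. For H3K4me3 the week 1 difference was 0.61 (interval 0.03 to 1.24). In week 2 it was −1.11 (interval −2.03 to −0.22), and in week 3 it was 0.33 (interval −0.33 to 1.02). Control tiles had the same signs in these weeks, at 0.51 (0.36 to 0.66), −3.51 (−3.81 to −3.22) and 0.78 (0.56 to 1.01). The KO mESC H3K9me3 share of the windows minus that of control tiles was −9.06 points in WT domains under 50.4 kb (−13.5 to −4.39) and 4.48 in domains over 345.6 kb (1.70 to 6.57). Each rests on 1 library per group.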

How the results depend on the processing

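Of 107 values of 13 results under another setting, 71 moved by less than the counting error, 35 moved by more, and 1 difference whose interval left out 0 turned its sign, EB week 2 H3K4me3, KO minus WT, at 0.17 points when a mark had to cover 50% of the window. Of those whose interval spans 0, KO H3K9me3 minus control tiles turned to 3.97 by runs (1.57 to 6.29) and 0.59 without X, and week 3 H3K4me3 to −0.055 at the median score. Coverage of 50% gave 68.6% for KO H3K9me3, −14.2 for week 3 H3K27me3 and 0 for week 1 H3K4me3. With domains at or above the median score of their list, KO H3K9me3 was 61.4% (−4.10 from control tiles). H3K27me3 was then −59.4 at week 2 and −10.7 at week 3, and H3K4me3 −0.17 at week 2. With summits above the median height of their list, WT Oct4 sites with a KO factor were 52.6%. By base pairs KO H3K9me3 was 68.8% and week 2 H3K4me3 −0.064. By runs the differences were −5.54 for genic midpoints and −8.07 for X. With H3K9me3 over at least 50% of the window, week 2 H3K27me3 was −64.7 and the X share 2.79%. KO H3K9me3 was 73.5% without X, 73.6% without chromosomes 8, 11 and X, and −5.94 from control tiles weighted by multi-copy share. Any gene overlap gave 21.4%, −6.09 from other Uhrf1 windows. In windows with and without the ORF2 stretch, KO H3K9me3 was 74.6 and 67.7% (−3.79 from control tiles without it), week 2 H3K27me3 −71.2 and −52.5, Oct4 sites with a KO factor 13.7 and 30.6%, genic midpoints 14.8 and 22.6%, and the X share 2.52 and 4.92%; with it week 1 H3K4me3 was 0, and without it the genic difference from other Uhrf1 windows was −0.52. Without summits of the L1 zone, Oct4 sites with a KO factor were 31.6%. Libraries could not be paired because each group had 1 library and the labels carry no replicate numbers. The intervals of KO minus WT shares were those for paired shares over the same windows. The causes of these shifts were not tested. Depth, mappability of repeats and antibody efficiency could not be assessed from these lists.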
